A study of Mus musculus with 20 samples.

Results

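The comparison set 2 genotypes of mice that each lack 1 of the main signalling adaptors of the Toll-like receptors against each other, the Trif mutant and the MyD88 knockout. Its members were the 4 Trif mutant and 4 MyD88 knockout arrays, taken by the genotype in the sample titles, out of 20 arrays of 5 genotypes in all (wild type, Trif mutant, and mice lacking Tlr3, Tlr4 or MyD88). Each array held RNA of intestinal epithelial cells from 1 healthy mouse of 28 days. The Trif mutants were homozygous for the allele written LPS/LPS, the MyD88 knockouts lacked MyD88, and the strain label of every animal was C57BBL6. No animal was treated, and no transgene or Cre was involved in either group. Both are germline alleles, carried in all cells and not only in the epithelium. EDTA served to loosen the epithelial cells from the gut wall and sedimentation to enrich them, a preparation that the labels report to have held few CD45+ (immune) cells. The part of the intestine sampled is not given.

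Toll-like receptors sense microbial molecules at the cell surface and in endosomes. MyD88 carries the signal of all of them but TLR3, and of the interleukin-1 and interleukin-18 receptors, through IRAK kinases to NF-kappaB. TRIF, encoded by Ticam1, is the only adaptor of TLR3 and the second adaptor of TLR4, and leads through TBK1 and IRF3 to type I interferon genes as well as to NF-kappaB. In the gut these pathways are known for their part in antimicrobial defence, epithelial renewal and tolerance of resident bacteria. A direct comparison of the mutants asks how the epithelium of unchallenged mice differs between loss of one adaptor and loss of the other.

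Values are log2 signals of the array's probes minus the 75th percentile of the same array, so that 0 is the level of a bright probe. A difference is always Trif mutant minus MyD88 knockout and is given ± its standard error (SE), from 4 arrays in each group and the spread over all 20. "Higher" and "lower" stand for an adjusted p (the false discovery rate, FDR, from limma over all features) under 0.05, and "well above background" for the scanner software's own call.

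Signal differed at most genes. Of 21879 features, 14027 (64.1%) passed the test, 5923 (27.1%) higher and 8104 (37%) lower in Trif mutants. With a difference of at least 1 as well, 6607 (30.2%) passed, 2108 (9.63%) higher and 4499 (20.6%) lower. The 4 arrays of one group all lay above the 4 of the other for 11377 features (52%). Since this background is so wide, the count of a gene list is read against it, and its median against the median of all features, -0.19.

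The 4 MyD88 arrays lay on 4 slides with no other array of the series, and all were read on another day and another scanner than the 16 others, so that slide, scan and genotype cannot be told apart. In the Trif mutants 64.7% to 69.3% of all probes were well above background and in the MyD88 knockouts 70.9% to 85.5%. The median difference rose with signal, from -0.93 in the dimmest of 10 equal classes of features to 0.34 in the brightest. It ran from -0.26 to 0.08 under quantile normalization and from -0.64 to 0.04 under cyclic loess. The higher share of the called features was 42.2%, and it was 47.5% under quantile normalization, 43.8% under cyclic loess, 58.7% under median scaling and 55.9% after normexp background correction. Those scalings moved the median of all features to -0.06, -0.12, 0.09 and 0.39. The filter on dim probes mattered too. With only the 17343 features well above background on all 8 arrays, 5693 were higher and 5967 lower. The higher share was then 48.8% and the median -0.03. Small differences and differences of dim genes therefore rest on the scaling, and genes whose call changed with it are given so below.

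**Figure D1:**
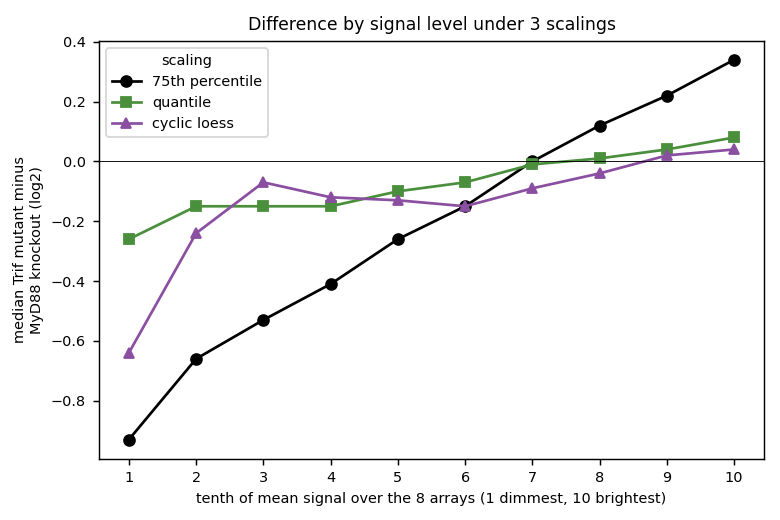
Median difference (log2, y axis) of the features in each of 10 equal classes of mean signal over the 8 arrays (x axis, 1 the dimmest and 10 the brightest) under 3 scalings. Under the 75th percentile the line climbs from -0.93 to 0.34, and it is flatter under quantile normalization (-0.26 to 0.08).

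Wild type arrays, which shared their 4 slides and the scan day with the Trif mutants, are given as a reference beside the lists. Both mutants are set against these same 4 arrays, so the 2 references are not independent. Y-linked signal lay above that of Xist, which only cells with an inactive X chromosome make, on 3 of 4 Trif mutant and 4 of 4 MyD88 arrays but on 0 of 4 wild type arrays. Sex therefore differed in 1 animal between the mutants (Trif replicate 4). It also differed from wild type in 3 of 4 Trif mutants and in all MyD88 knockouts. Without Trif replicate 4, 14082 features passed. Of all features 28.7% were higher and 15.7% lower in Trif mutants than in wild type, and 37.2% higher and 12.3% lower in MyD88 knockouts.

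The genes of the adaptors were read first. Myd88 signal (probe at chr9:119245322-119245381, mm9) was 2.09, 2.05, 2.25 and 1.68 in the Trif mutants and 1.08, 0.86, 0.86 and 0.84 in the MyD88 knockouts. All 4 MyD88 values lay below all 4 Trif values, a difference of 1.11 ± 0.11, FDR = 4.9e-07, and the gene stayed well above background on all 8 arrays. The labels do not say which part of Myd88 was removed, so the signal that remained cannot be read against the deletion. Ticam1 (probe at chr17:56409285-56409344) was 2.15, 2.23, 2.19 and 1.67 in the Trif mutants and 0.97, 0.68, 1.00 and 1.12 in the MyD88 knockouts. It was higher in the Trif mutants (1.12 ± 0.13, FDR = 2.3e-06) on both of its probes (1.00 on the other). If the allele of the label is Lps2, it is known as a frameshift, for which a probe of this kind does not test. Within 10 Mb of Myd88 on chromosome 9, 110 of 160 other features passed (68.8%), against 63.5% on the rest of the chromosome. Around Ticam1 on chromosome 17 it was 59% against 63.6%.

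Among the receptors, Tlr2 and Tlr1 were far lower in the Trif mutants. Tlr2, which recognises bacterial lipoproteins, was -5.28, -5.76, -6.46 and -4.76 in the Trif mutants and -0.36, 0.00, -1.10 and -1.09 in the MyD88 knockouts. Its groups lay far apart (-4.93 ± 0.36, FDR = 6.9e-08), with 2 of 4 Trif arrays and all MyD88 arrays well above background. After normexp it was -2.11, FDR = 0.0013. Tlr1, a partner of TLR2 in the same complex, was -5.12, -5.47, -5.36 and -3.38 in the Trif mutants and -1.18, -0.91, -1.76 and -1.26 in the MyD88 knockouts, a difference of -3.56 ± 0.37, FDR = 9.1e-07, and Trif replicate 4 lay above the other 3 Trif mutants (after normexp -1.55, FDR = 0.008). Relative to wild type, Tlr2 was -3.47 (FDR = 3.7e-06) in Trif mutants and 1.46 (FDR = 0.0035) in MyD88 knockouts, so that the mutants stood on opposite sides of the wild type level. Tlr5, the flagellin receptor, was lower at -2.08 ± 0.34 (FDR = 6.2e-05), a call that was lost after normexp (-0.37, FDR = 0.52), and relative to wild type it was 0.16 (FDR = 0.74) in Trif mutants and 2.24 (FDR = 1.1e-04) in MyD88 knockouts. Cd14 (-1.26 ± 0.23) and Lbp (-2.20 ± 0.31), which pass lipopolysaccharide to TLR4, were lower too.

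Of 9 tested members of the receptor list 5 were lower and 0 higher, with a median of -1.26. The counts were 6 lower and 2 higher under quantile normalization and under cyclic loess, and 5 and 2 under median scaling. After normexp they were 4 and 0, with a median of -0.37 against 0.39 for all features. Tlr3, the receptor of double-stranded RNA, was -1.45, -1.32, -1.08 and -1.45 in the Trif mutants and -1.29, -1.83, -1.51 and -1.69 in the MyD88 knockouts, and these values overlapped (0.26 ± 0.14, FDR = 0.12). It was called higher under quantile normalization (0.37, FDR = 0.013), median scaling (0.54, FDR = 0.0014), cyclic loess (0.43, FDR = 0.0058) and without MyD88 replicate 1 (0.36, FDR = 0.041, when 1 receptor gene was higher). Tlr6 (0.33), Tlr9 (-0.40) and Ly96 (0.12) did not pass. Tlr4 was not tested, as its probes were well above background on 2 and 0 of 20 arrays (0 of 4 in Trif mutants and 2 of 4 in MyD88 knockouts for the brighter one).

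Downstream of the receptors 13 of 28 adaptor and kinase genes were higher and 4 lower (median 0.28). After normexp 11 were higher and 3 lower, with a median of 0.39, the same as that of all features. Chuk, the IKK-alpha kinase of the NF-kappaB pathway, was 2.87, 2.99, 3.09 and 2.88 in the Trif mutants and 1.70, 1.67, 1.98 and 1.89 in the MyD88 knockouts (1.15 ± 0.14, FDR = 4.2e-06), with no overlap. Tollip, which binds IRAK1, was higher by 1.30 ± 0.22 on this probe and by 0.30 and 0.54 on its other probes. Irak2 (1.10 ± 0.16), Irak4 (0.89 ± 0.11), Tbk1 (0.85 ± 0.14) and Ripk1 (0.92 ± 0.16) were higher as well. On the other side stood Unc93b1 (-1.07 ± 0.14, FDR = 6.3e-06), the chaperone that brings nucleic acid-sensing receptors to endosomes, Ripk3 (-1.04 ± 0.14), a kinase of necroptosis, and Irak1 (-0.62 ± 0.17). Irak3, an inhibitor of the pathway, was lower at the 75th percentile scaling (-1.27 ± 0.22, FDR = 9.9e-05) but not after normexp (0.31, FDR = 0.55). The kinase genes did not go one way as a class.

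NF-kappaB targets and regulators were split, with 9 of 23 higher, 8 lower and a median of 0.04. Zc3h12a, the RNase that degrades inflammatory mRNAs, was -2.52, -1.90, -2.18 and -1.58 in the Trif mutants and 0.80, 0.51, 0.31 and 0.20 in the MyD88 knockouts, lower by 5.66-fold (-2.50 ± 0.17, FDR = 5.2e-08) with the groups well apart. Pglyrp1, a secreted peptidoglycan-binding protein, was lower (-2.11 ± 0.24, FDR = 1.5e-06), whereas the survival genes Cflar (1.18 ± 0.10, FDR = 2.7e-07) and Birc3 (1.03 ± 0.11, FDR = 1.5e-06) were higher. Of 18 chemokines 6 were higher, among them Ccl24 (2.01 ± 0.43) and Cxcl16 (1.91 ± 0.26), and 6 lower, among them Ccl9 (-2.24 ± 0.22) and Ccl28 (-2.08 ± 0.20, which after normexp was -0.89, FDR = 0.055).

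Genes of cell division were lower almost throughout. Of 28 mitosis genes 27 were lower in the Trif mutants and 0 higher, with a median of -2.78. Cdk1, the kinase that drives entry into mitosis, was -2.14, -3.69, -3.15 and -0.61 in the Trif mutants and 1.49, 1.73, 1.40 and 1.63 in the MyD88 knockouts. Every Trif value lay below every MyD88 value, with the MyD88 knockouts close together and the Trif mutants spread over 3 log2 units. The difference was -3.96 ± 0.46, FDR = 2.2e-06 (15.6-fold), and -1.65 on the gene's other probe. Cyclin B1, Ccnb1, its activating subunit, was lower at -3.58 ± 0.45, and at -3.64 and -3.52 on 2 other probes. Ttk, a spindle checkpoint kinase, was lower at -4.07 ± 0.51 and well above background on only 2 of 4 Trif arrays (after normexp -0.63, FDR = 0.27). Bub1 (-0.36) was the member that did not pass.

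This difference lay on the side of the Trif mutants. The median of the list relative to wild type was -2.44 in Trif mutants and 0.36 in MyD88 knockouts, and 27 of 28 members were lower than wild type in Trif mutants and 1 higher in MyD88 knockouts. By array it was -3.58 to -1.11 in Trif mutants, 0.05 to 0.77 in MyD88 knockouts, -1.84 to -0.83 in Tlr3 and -0.64 to 0.17 in Tlr4 knockouts. The Trif mutants shared slides and scan day with wild type, but 3 of 4 differed from it in sex. Trif replicates 1 (-2.01) and 4 (-1.11) were the least low, and replicate 4 was the one that did not differ from wild type in sex. The part of sex in the difference from wild type was not tested.

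The promoters of 2 of these genes are printed because the list moved together. The sequences are RefSeq's (GRCm38.p6), the 250 bases before the transcription start, 5′ to 3′ on the gene's strand. Capitals mark CCAAT (or its reverse complement ATTGG), the box bound by NF-Y, and TTTGAA (or TTCAAA), the core of the cell cycle homology region.
Cdk1, chr10:69352913-69353162, minus strand: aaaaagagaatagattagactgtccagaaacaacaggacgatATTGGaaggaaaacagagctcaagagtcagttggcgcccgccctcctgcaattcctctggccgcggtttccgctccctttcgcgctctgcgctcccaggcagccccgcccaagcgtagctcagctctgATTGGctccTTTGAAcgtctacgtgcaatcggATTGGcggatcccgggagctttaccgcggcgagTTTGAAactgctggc
Ccnb1, chr13:100786487-100786736, minus strand: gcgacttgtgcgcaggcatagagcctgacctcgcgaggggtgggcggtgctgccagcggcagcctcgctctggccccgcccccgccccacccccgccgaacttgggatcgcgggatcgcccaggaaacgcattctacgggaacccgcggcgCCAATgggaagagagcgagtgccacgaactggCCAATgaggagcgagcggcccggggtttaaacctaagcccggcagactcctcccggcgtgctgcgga
The Cdk1 window held 5 matches and the Ccnb1 window 2. CCAAT was found on either strand in 19 of the 23 mitosis genes that had a promoter entry (82.6%) and in 34.5% of all 27025 promoters of this length, and TTTGAA in 8 of 23 (34.8%) against 16.3%. A match is a description of the letters, not of a bound site.

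DNA replication and ribosome biogenesis went the same way. Of 31 replication genes 30 were lower and 1 higher (median -2.19), and of 27 ribosome biogenesis genes all 27 were lower (median -2.13). Mcm5, a subunit of the replicative helicase, was -0.37, -1.67, -1.40 and 0.72 in the Trif mutants and 2.66, 3.34, 2.57 and 2.61 in the MyD88 knockouts (-3.47 ± 0.39, FDR = 1.7e-06), with no overlap. Pola1, the catalytic subunit of DNA polymerase alpha, was lower at -3.61 ± 0.47. Nle1 (-3.05 ± 0.30, after normexp -2.02, FDR = 2.2e-04) and Gar1 (-2.87 ± 0.35) led the ribosome list. Set against wild type, the replication list lay at -1.93 in Trif mutants and 0.33 in MyD88 knockouts and the ribosome list at -1.90 in Trif mutants and 0.26 in MyD88 knockouts.

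Crypt stem cell markers and Wnt targets were lower in 17 of 25 cases and higher in 3 (median -1.44). Olfm4, a secreted glycoprotein of crypt base stem cells, was -1.52, -2.79, -3.38 and 0.31 in the Trif mutants and 3.39, 3.74, 3.19 and 3.28 in the MyD88 knockouts. The MyD88 values lay within 1 log2 unit of each other and all Trif values were below them, 37.9-fold on average (-5.24 ± 0.58, FDR = 1.5e-06), and -5.43 on its other probe. Myc, the growth regulator and Wnt target, was -0.33, -1.99, -1.92 and -0.10 in the Trif mutants and 2.38, 2.76, 2.23 and 2.58 in the MyD88 knockouts (-3.57 ± 0.37, FDR = 8.4e-07). Lgr5, the stem cell receptor for R-spondins, was lower at -1.99 ± 0.34 (FDR = 8.5e-05). Igfbp4 (1.27 ± 0.19) and the Wnt target Sp5 (1.01 ± 0.25) were higher, although the other probe of Igfbp4 gave -1.17. Relative to wild type the list lay at -0.96 in Trif mutants and 0.50 in MyD88 knockouts, with 15 members lower in the former and 12 higher in the latter, and Olfm4 at -3.28 (FDR = 2.4e-04) in Trif mutants and 1.96 (FDR = 0.011) in MyD88 knockouts.

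Products of Paneth cells, the antimicrobial cells of the crypt base, were lower in Trif mutants. All 11 tested alpha-defensins were lower, with a median of -1.79, and 10 of them did not overlap between the groups. Defa-rs12 was -0.98, -1.41, -1.96 and -1.36 in the Trif mutants and 2.63, 1.90, 3.76 and 1.31 in the MyD88 knockouts (-3.83 ± 0.54, FDR = 1.4e-05), and Defa22 was 3.12, 3.18, 2.35 and 2.44 in the Trif mutants and 6.64, 5.47, 7.67 and 5.53 in the MyD88 knockouts (-3.55 ± 0.55, FDR = 3.1e-05). MyD88 replicate 3 had the highest value of both. Since alpha-defensins are near-identical paralogs, a probe can read several of them, and these counts are not of independent genes. Of 17 tested Paneth products other than defensins 11 were lower and 2 higher (median -1.51). Mmp7, the protease that activates alpha-defensins in mice, was -0.68, -0.94, -1.03 and -0.86 in the Trif mutants and 3.33, 2.63, 4.37 and 2.38 in the MyD88 knockouts, 16.6-fold apart (-4.06 ± 0.42, FDR = 8.1e-07). The lectin Itln1 (-3.12 ± 0.53, FDR = 7.7e-05) and the lysozyme Lyz1 (-2.94 ± 0.52) were also lower. Dll4 (0.79 ± 0.21) and Fgfrl1 (0.76 ± 0.22) were higher.

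For the Paneth lists it was the MyD88 knockouts that stood further from wild type. The alpha-defensin median was -0.57 in Trif mutants and 1.20 in MyD88 knockouts, with 11 of 11 members higher than wild type in MyD88 knockouts and 0 called either way in Trif mutants. The other Paneth products lay at -0.43 in Trif mutants and 1.12 in MyD88 knockouts. By array the defensin list was -0.87 to -0.15 in Trif mutants and 0.83 to 1.62 in MyD88 knockouts. As the MyD88 arrays were scanned apart from wild type, this rise cannot be told apart from the scan. In bulk RNA fewer cells of a type and less RNA in each cannot be told apart either, here and for every cell type below.

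Antimicrobial and mucosal defence genes were lower in 17 of 30 and higher in 4 (2 without MyD88 replicate 2), with a median of -0.98 that was -0.09 after normexp, when 7 were lower. Pla2g5, a secreted phospholipase A2 active against bacterial membranes, was -4.52, -5.85, -5.09 and -4.04 in the Trif mutants and 1.08, 1.13, 0.71 and 1.18 in the MyD88 knockouts (-5.90 ± 0.49, FDR = 1.7e-07). It was among the largest differences of the whole comparison, and after normexp it was -3.52, FDR = 6.5e-05. The acute-phase gene Saa3, at background level throughout the Trif mutants, was on average at least 11.9-fold lower (-4.30 ± 0.62, FDR = 1.8e-05), though not after normexp (-0.77, FDR = 0.34). Reg3g, the lectin that keeps bacteria off the epithelium, was 6.29, 5.50, 6.60 and 4.78 in the Trif mutants and 7.77, 7.52, 7.61 and 7.76 in the MyD88 knockouts (-1.87 ± 0.27, FDR = 1.5e-05). The protease inhibitor Slpi (-4.07 ± 0.56, 1 of 4 Trif arrays well above background, after normexp -1.21, FDR = 0.051), Saa2 (-4.12 ± 0.66, after normexp -2.46, FDR = 0.009) and Dmbt1 (-3.45 ± 0.38) followed. Reg3a (0.99 ± 0.20) and the cytokine Il18 (1.27 ± 0.21) were higher. Against wild type Saa2 was -8.99 (FDR = 2.7e-07) in Trif mutants and -4.87 (FDR = 4.9e-05) in MyD88 knockouts, below wild type in both. Slpi was -0.76 (FDR = 0.29) in Trif mutants and 3.32 (FDR = 2.3e-04) in MyD88 knockouts.

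MHC class II genes, which present antigen to CD4+ T cells, were lower by the largest median of the 48 lists (-3.00, and after normexp -2.14, when that of mitosis genes was -2.41). Of 9 tested members 7 were lower and 0 higher. H2-Aa, the alpha chain, was -4.21, -4.78, -4.79 and -4.12 in the Trif mutants and -0.57, -1.35, 0.38 and 0.31 in the MyD88 knockouts (-4.17 ± 0.43, FDR = 8.6e-07), and -4.35 on its other probe (after normexp -2.25, FDR = 0.0019). H2-DMb1, which loads peptides, was -2.33, -3.03, -3.28 and -2.87 in the Trif mutants and 1.64, 1.21, 1.94 and 2.25 in the MyD88 knockouts (-4.64 ± 0.39, FDR = 1.7e-07). The invariant chain Cd74 was lower at -5.01 ± 0.46, with Trif replicate 3 left out of this gene because its spot carried an outlier flag. Ciita, the transcriptional activator of the class, was -2.38, -2.59, -3.35 and -3.32 in the Trif mutants and -1.50, -1.50, -1.73 and -1.51 in the MyD88 knockouts, lower by less, at -1.35 ± 0.44 (FDR = 0.013), and not past the test after normexp (-0.44, FDR = 0.39). H2-Oa (-0.21) and H2-Eb2 (-1.04) did not pass.

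The mutants lay on opposite sides of wild type. On the MyD88 side this cannot be told apart from slide, scan or sex. On the Trif side 3 of 4 animals, all but replicate 4, differed from wild type in sex as well. The list's median was -1.19 in Trif mutants and 1.81 in MyD88 knockouts. By array it was -1.39 to -0.87 in Trif mutants, 1.08 to 2.22 in MyD88 knockouts, 0.61 to 2.65 in Tlr3 and 2.56 to 2.94 in Tlr4 knockouts. The last 2 groups shared slides and scan with the Trif mutants, and every one of their 8 arrays lay above every Trif mutant array.

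Genes of the absorptive enterocyte were higher in Trif mutants. Of 24 brush border genes 18 were higher and 0 lower (median 1.14), of 19 sugar, peptide and amino acid transporters 17 and 0 (median 1.26; 1 was lower without Trif replicate 3 or MyD88 replicate 3), and of 24 genes of dietary fat absorption 21 and 0 (median 1.24). Apob, the scaffold protein of chylomicrons, was 6.92, 6.85, 6.75 and 6.63 in the Trif mutants and 4.24, 3.92, 4.30 and 4.62 in the MyD88 knockouts. The groups lay 5.72-fold apart (2.52 ± 0.21, FDR = 1.7e-07), and 2.51 to 2.95 on 4 other probes. The lysosomal lipase Lipa (2.90 ± 0.25, FDR = 2.4e-07) and the apolipoprotein Apoa4 (2.39 ± 0.29, FDR = 3.1e-06) showed the same. Slc2a2, the basolateral glucose transporter, was 5.91, 5.88, 5.66 and 6.24 in the Trif mutants and 3.67, 3.67, 4.52 and 4.22 in the MyD88 knockouts (1.90 ± 0.21, FDR = 1.2e-06), the nucleoside transporter Slc28a2 was higher by 2.32 ± 0.39, and intestinal alkaline phosphatase, Alpi, by 1.92 ± 0.37. Fabp1 (-0.02) and Fabp2 (0.01), the abundant fatty acid-binding proteins, did not pass.

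For these lists too the mutants lay on opposite sides of wild type. Here as well the MyD88 side cannot be told apart from slide, scan or sex, and 3 of 4 Trif mutants differed from wild type in sex. With wild type as reference the fat absorption list lay at 0.63 in Trif mutants and -0.49 in MyD88 knockouts, the transporter list at 0.61 in Trif mutants and -0.54 in MyD88 knockouts and the brush border list at 0.53 in Trif mutants and -0.57 in MyD88 knockouts. By array the fat absorption list was 0.54 to 0.71 in Trif mutants and -0.89 to -0.26 in MyD88 knockouts, and 0.47 to 0.78 in Tlr3 knockouts on the slides of the Trif mutants. These genes are bright, and the median of the brightest of the 10 signal classes was 0.34. Epithelial identity genes were detected on all 8 arrays (15 of 15), with 7 higher (3 without Trif replicate 3, 4 without MyD88 replicate 4) and 3 lower and a median of 0.22. The balance depended on the scaling, with 3 higher and 4 lower under quantile normalization, 2 and 6 under cyclic loess (median -0.09) and 1 and 3 after normexp. The intestinal transcription factor Cdx2 was higher (1.45 ± 0.15) and the keratin Krt19 lower (-0.90 ± 0.12).

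**Figure D2:**
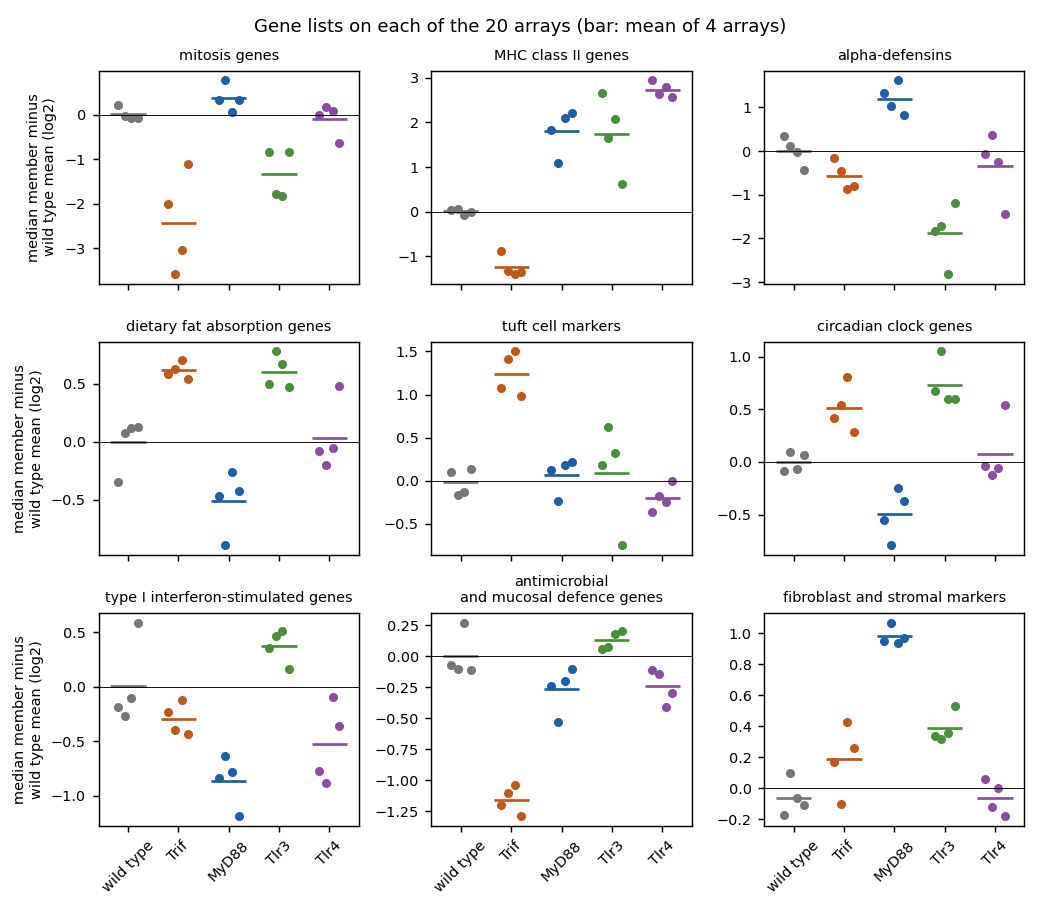
Median member of 9 gene lists minus its wild type mean (log2, y axis) on each of the 20 arrays, by genotype (x axis), with the mean of 4 arrays as a bar. On average the Trif mutants lie lowest for mitosis (-3.58 to -1.11) and MHC class II genes (-1.39 to -0.87) and highest for tuft cell markers (0.98 to 1.50), and the MyD88 knockouts highest for alpha-defensins (0.83 to 1.62).

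Tuft cells, the chemosensory cells that release interleukin-25, gave 18 of 23 markers higher and 1 lower (median 1.30). Sucnr1, the succinate receptor, was 0.53, 0.86, 1.40 and -0.92 in the Trif mutants and -2.10, -3.26, -2.50 and -2.48 in the MyD88 knockouts. Its groups did not overlap (3.05 ± 0.46, FDR = 2.5e-05). The taste channel Trpm5 was higher by 1.40 ± 0.24, the prostaglandin synthase Ptgs1 by 1.75 ± 0.31 and Dclk1, a kinase used as a tuft cell marker, by 1.30 ± 0.30. Pou2f3 (-0.42), the lineage's transcription factor, did not pass. Chat, which makes acetylcholine in these cells, was lower (-1.88 ± 0.39, FDR = 4.6e-04), but not after normexp (-0.16, FDR = 0.77). The list stood at 1.25 in Trif mutants and 0.07 in MyD88 knockouts relative to wild type. By array it was 0.98 to 1.50 in Trif mutants against -0.24 to 0.21 in MyD88 knockouts and -0.75 to 0.62 in Tlr3 knockouts. The Trif mutants lay above the genotypes on their own slides, and 3 of 4 of them differed from wild type in sex.

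Other secretory lineages moved less or in both directions. Of 23 goblet cell markers 4 were higher and 8 lower (median -0.21). These counts were 1 higher without Trif replicate 2 or 3 or MyD88 replicate 2 or 4, 8 higher without Trif replicate 4, and 5 lower without Trif replicate 1 or 4 or MyD88 replicate 1 or 3. By scaling they ran from 9 higher and 5 lower (median scaling) to 1 and 9 (cyclic loess). The trypsin inhibitor Spink4 (-1.86 ± 0.17, FDR = 3.7e-07) and the transcription factor Creb3l4 (-1.24 ± 0.15, FDR = 2.6e-06) were lower with no overlap. The mucin Muc2 was 5.55, 6.13, 6.21 and 4.85 in the Trif mutants and 5.34, 4.49, 5.17 and 4.40 in the MyD88 knockouts (0.83 ± 0.31, FDR = 0.028), and its call was lost under quantile normalization (0.54, FDR = 0.15), cyclic loess (0.53, FDR = 0.15) and normexp (0.55, FDR = 0.3) and without Trif replicate 2 or 3 or MyD88 replicate 2 or 4 (FDR up to 0.095). Of 30 enteroendocrine markers 6 were higher (11 without MyD88 replicate 3) and 11 lower, with somatostatin, Sst (1.24 ± 0.24), and secretin, Sct (1.17 ± 0.17), higher and tachykinin, Tac1 (-1.74 ± 0.21, after normexp -0.94, FDR = 0.01), and proglucagon, Gcg (-1.28 ± 0.23), lower. A second probe of Gcg gave 0.40. Median scaling gave 14 of these markers higher and 9 lower, and normexp 3 and 4.

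Type I interferon-stimulated genes, the targets of the IRF3 and IRF7 arm, were higher in 27 of 46 and lower in 4 (median 0.60). The counts were 21 and 3 under quantile normalization, 20 and 4 under cyclic loess and 30 and 3 under median scaling. After normexp they were 18 and 2, with a median of 0.53 against 0.39 for all features. Ddx58, the cytosolic RNA sensor RIG-I, was 1.90, 1.61, 1.47 and 1.24 in the Trif mutants and -0.84, -0.62, -0.42 and -0.71 in the MyD88 knockouts. All Trif values lay above all MyD88 values (2.20 ± 0.17, FDR = 9.2e-08), and 3 other probes gave 0.85 to 1.60. Trim30a, a regulator of innate signalling, was higher by 2.14 ± 0.26 here and by 0.66 on its other probe. Stat2 (1.36 ± 0.20), Irf7 (0.94 ± 0.26) and Ifit1 (1.19 ± 0.34), were higher, while the groups of Irf7 overlapped. The nucleic acid sensor Zbp1 was lower (-1.09 ± 0.33, FDR = 0.0085), as was Ifi44 (-1.99 ± 0.49, FDR = 0.002, after normexp -0.77, FDR = 0.23).

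The median of this list lay below wild type in both mutants, -0.29 in Trif mutants and -0.81 in MyD88 knockouts, with 31 of 46 members lower than wild type in MyD88 knockouts and 13 in Trif mutants. By array it was -0.43 to -0.12 in Trif mutants, -1.19 to -0.64 in MyD88 knockouts and -0.27 to 0.59 in wild type, where replicate 4 was the highest. Of 24 interferon-gamma response genes 10 were lower and 4 higher (median -0.56, and 0.16 after normexp). The 4 were 1 without Trif or MyD88 replicate 2 and 2 without Trif replicate 3 or MyD88 replicate 4. Ubd, a ubiquitin-like modifier, was -3.07 to -1.93 in the Trif mutants and -0.49 to 0.65 in the MyD88 knockouts (-2.65 ± 0.39, FDR = 2.2e-05), and the GTPase Iigp1 was lower at -3.03 ± 0.68 (after normexp -0.46, FDR = 0.5). Ido1, which degrades tryptophan, was higher (1.46 ± 0.52, FDR = 0.021), but not without Trif replicate 2 or 3 or MyD88 replicate 2 or 4 (FDR up to 0.076) or after normexp (1.22, FDR = 0.097). MHC class I antigen processing had 13 of 24 genes higher and 3 lower (median 0.56), with the non-classical class I gene H2-T3 (1.29 ± 0.11, FDR = 2.4e-07) first and the immunoproteasome subunit Psmb9 lower (-0.90 ± 0.17, FDR = 1.7e-04). Under cyclic loess 11 of these genes were higher and 8 lower. After normexp 9 were higher and 2 lower, with a median of 0.37 against 0.39 for all features.

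Circadian clock genes gave 16 of 21 higher and 3 lower (median 0.94). The PAR bZip factor Dbp, an output of the clock, was 6.18, 5.59, 6.42 and 5.75 in the Trif mutants and 1.93, 1.35, 3.60 and 2.44 in the MyD88 knockouts, 12.6-fold apart (3.66 ± 0.42, FDR = 2.1e-06). Hlf, of the same family, was 0.46, -0.07, 0.55 and 0.02 in the Trif mutants and -3.26, -3.26, -1.84 and -2.59 in the MyD88 knockouts (2.98 ± 0.41, FDR = 1.0e-05). The opposite sign was found in Arntl (-1.10 ± 0.19, FDR = 1.1e-04), which encodes the activator BMAL1, and in Nfil3 (-1.74 ± 0.29, FDR = 6.3e-05), the repressor of the sites that DBP and HLF bind. The repressor Nr1d1 (2.01 ± 0.19, FDR = 3.5e-07) and the clock-controlled repressor Ciart (2.72 ± 0.55, FDR = 4.1e-04, after normexp 1.42, FDR = 0.013), were higher, and Per1 (-0.50) did not pass. The 2 other probes of Nr1d1 that were well above background gave -0.48 and 0.51. The time of day at which animals were killed is not in the labels, and its part in this result was not tested. The list lay at 0.47 in Trif mutants and -0.44 in MyD88 knockouts relative to wild type.

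The Ciart promoter is shown because it held the most E-boxes among the 5 clock promoters read out (CACGTG, in capitals, its own reverse complement), the element that the BMAL1 complex binds. RefSeq's 250 bases before the start (GRCm38.p6) are printed 5′ to 3′.
Ciart, chr3:95882229-95882478, minus strand: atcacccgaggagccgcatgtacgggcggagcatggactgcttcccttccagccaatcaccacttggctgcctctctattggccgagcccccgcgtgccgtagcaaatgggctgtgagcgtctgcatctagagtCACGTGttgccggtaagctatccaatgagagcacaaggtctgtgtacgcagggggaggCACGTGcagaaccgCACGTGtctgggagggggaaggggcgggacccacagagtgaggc
This window held 3 matches, while those of Dbp, Nr1d1, Hlf and Cry2 held none of CACGTG or TTATGTAA. CACGTG was found in 5 of 18 clock genes with a promoter entry (27.8%), against 6.05% of all promoters.

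Detoxification genes were mostly higher, while cholesterol synthesis genes differed in both directions. Of 30 aryl hydrocarbon receptor and cytochrome P450 genes 22 were higher and 1 lower (median 1.36). Cyp2b10, a target of the xenobiotic receptor CAR, was 4.31, 4.40, 3.90 and 4.03 in the Trif mutants and 1.00, 0.92, 2.46 and 1.75 in the MyD88 knockouts (2.62 ± 0.44, FDR = 6.4e-05). Cyp2c38 was higher by 2.64 ± 0.53, with 3 of 4 Trif and 1 of 4 MyD88 arrays well above background (after normexp 1.08, FDR = 0.093). Cyp1a1, the classical target of the aryl hydrocarbon receptor, did not pass (0.99 ± 0.79, FDR = 0.28), and was -3.47 (FDR = 0.0018) in Trif mutants and -4.45 (FDR = 3.4e-04) in MyD88 knockouts relative to wild type. Cyp1a2 was lower (-1.09 ± 0.24, FDR = 9.2e-04) although no Trif array was well above background, its call was lost under quantile normalization (-0.47, FDR = 0.068) and its sign turned after normexp (0.71, FDR = 0.26). Of 29 glutathione and NRF2 target genes 18 were higher, led by the rate-limiting enzyme Gclc (1.97 ± 0.25, FDR = 4.5e-06), and 6 lower, led by the epithelial peroxidase Gpx2 (-1.44 ± 0.18, FDR = 4.2e-06). The PPAR-alpha list had 16 of 31 higher and 3 lower (median 0.49), with the peroxisome factor Pex11a first (1.68 ± 0.20, FDR = 2.5e-06). Of 25 cholesterol synthesis genes 10 were higher and 6 lower (10 lower without Trif replicate 3), with a median of 0.08, the carrier Stard4 (1.85 ± 0.19) and the enzyme Lss (-1.12 ± 0.15) among them. This balance turned to 6 higher and 8 lower under quantile normalization, 5 and 10 under cyclic loess and 5 and 7 after normexp, and was 12 and 3 under median scaling.

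Stress lists were mixed. Immediate early genes, which respond within minutes to growth signals and stress, were higher in 12 of 21 and lower in 1 (2 without MyD88 replicate 2), with a median of 0.93. Jun was 2.36, 2.34, 2.85 and 1.67 in the Trif mutants and 0.58, 0.18, 0.61 and 0.12 in the MyD88 knockouts (1.93 ± 0.29, FDR = 2.1e-05), and Atf3 was higher by 2.29 ± 0.49. Heat shock genes were lower in 10 of 17 (6 without MyD88 replicate 2, and 5 lower and 5 higher under median scaling) and higher in 1, the co-chaperone Dnajb1 (0.35 ± 0.14, FDR = 0.041). Its call was lost under quantile normalization, cyclic loess and normexp (FDR = 0.69 to 0.74) and without any 1 of the 4 Trif mutants or MyD88 replicate 1 or 2 (0.23, FDR = 0.16 without MyD88 replicate 1). Hsph1 was 0.81, 0.27, 0.78 and 1.53 in the Trif mutants and 2.63, 3.30, 3.46 and 3.44 in the MyD88 knockouts (-2.36 ± 0.28, FDR = 2.5e-06). The mitochondrial chaperone Hspd1 was lower at -2.68 ± 0.83, of which Trif replicate 3, at -0.72, made a large share (-1.33, FDR = 0.00021 without it). Of 22 serine synthesis and ATF4 response genes 6 were higher, with Trib3 (1.88 ± 0.25), and 12 lower, with the amino acid transporter Slc7a5 (-2.64 ± 0.30, FDR = 1.9e-06, after normexp -1.30, FDR = 0.012) and the first enzyme of serine synthesis, Phgdh (-2.35 ± 0.39, FDR = 6.3e-05). Of 22 endoplasmic reticulum chaperones 6 were higher, with P4hb (1.04 ± 0.12, and 0.68 under cyclic loess), and 8 lower (5 without Trif replicate 1 or 2), with Derl3 (-1.71 ± 0.19, after normexp -0.02, FDR = 0.96). Their balance ran from 8 higher and 2 lower under median scaling to 5 and 13 under cyclic loess. Respiratory chain subunits were higher in 19 of 32 and lower in 2 (0 without Trif or MyD88 replicate 2, 1 without Trif replicate 1 or 3 or MyD88 replicate 4), but higher in 4 and lower in 9 under cyclic loess.

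Barrier and cytokine genes completed the epithelial lists. Cldn4, a tight junction claudin, had the largest positive difference under the naming rule given below. It was 1.32, 1.30, 2.30 and -1.11 in the Trif mutants and -2.80, -3.98, -3.78 and -3.49 in the MyD88 knockouts (4.46 ± 0.61, FDR = 9.5e-06, 22.1-fold). All Trif values lay above all MyD88 values, with Trif replicate 4 the closest to them. Of 16 tight junction genes 8 were higher and 3 lower, the leaky claudin Cldn2 (-1.37 ± 0.23, FDR = 7.0e-05) and Cldn8 (-3.03 ± 0.58, FDR = 2.5e-04, after normexp -1.18, FDR = 0.061) among the latter. The counts were 6 and 5 under quantile normalization, 5 and 5 under cyclic loess and 2 and 2 after normexp. In the IL-22, IL-17 and STAT3 list 9 of 18 were higher and 1 lower (2 without MyD88 replicate 2 or Trif replicate 3). Stat3 was 4.01, 4.05, 3.97 and 2.77 in the Trif mutants and 1.88, 1.52, 1.87 and 1.82 in the MyD88 knockouts (1.93 ± 0.22, FDR = 1.7e-06), and the receptor subunit Il17re was lower (-1.70 ± 0.24, FDR = 1.5e-05, after normexp -0.82, FDR = 0.026). Of 23 glycosyltransferases 11 were higher, led by the sulfotransferase Gal3st2 (1.90 ± 0.23, FDR = 3.7e-06), and 3 lower, led by B3galt5 (-1.72 ± 0.54, FDR = 0.011). B3galt5 was -6.11 (FDR = 1.2e-06) in Trif mutants and -4.39 (FDR = 2.2e-05) in MyD88 knockouts relative to wild type, and Fut2 (0.15, not past the test) was -3.24 (FDR = 1.3e-05) in Trif mutants and -3.39 (FDR = 1.6e-05) in MyD88 knockouts, both well below wild type in either mutant. Of 17 genes of metal handling 7 were higher, with the manganese exporter Slc30a10 (1.84 ± 0.40), and 4 lower, with the transferrin receptor Tfrc (-1.40 ± 0.21, FDR = 2.6e-05).

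Markers of gut regions are given since the region sampled is not in the labels. Of 22 duodenal and proximal genes 10 were higher and 4 lower, of 14 ileal genes 6 and 2, and of 19 colon and caecum markers 2 (5 without Trif replicate 4) and 7 (4 without MyD88 replicate 4, and 5 higher and 4 lower under median scaling). Their medians were 0.59 (0.19 without Trif replicate 4), 0.61 (0.23 without Trif replicate 3) and -0.05. Gkn2, a gastric mucosal protein, was -5.98, -5.04, -6.88 and -4.62 in the Trif mutants and 3.23, 6.89, -5.11 and 2.09 in the MyD88 knockouts. The MyD88 values spanned 12 log2 units, with replicate 3 among the Trif mutants, and the difference was -7.41 ± 1.75, FDR = 0.0015. Tff2, a trefoil peptide of the stomach and of the duodenal Brunner's glands, behaved alike, with -7.80, -6.73, -6.89 and -6.37 in the Trif mutants. In the MyD88 knockouts it was -5.64 in replicate 3, -0.61 in replicate 4 and 0.80 in replicate 1, and higher still in replicate 2. None of the Trif arrays was well above background for Tff2, which was on average at least 52.2-fold lower (-6.63 ± 1.39, FDR = 5.5e-04). After normexp the differences were -4.79, FDR = 0.013 for Gkn2 and -2.88, FDR = 0.045 for Tff2. Bco1, placed in the ileal list, was higher (2.79 ± 0.55, FDR = 3.0e-04), but it is a carotenoid-cleaving enzyme and is not read here as a marker of the ileum. Of the same list Nr0b2 (2.00 ± 0.41, FDR = 4.9e-04), a repressor induced by the bile acid receptor, was higher. That receptor, Nr1h4, was lower (-0.87 ± 0.26, FDR = 0.0068). Fabp6, the ileal bile acid-binding protein, overlapped between groups (-0.29 ± 0.43, FDR = 0.57), and adenosine deaminase, Ada, a marker of the proximal intestine, was higher (2.35 ± 0.32, FDR = 1.1e-05).

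**Figure D3:**
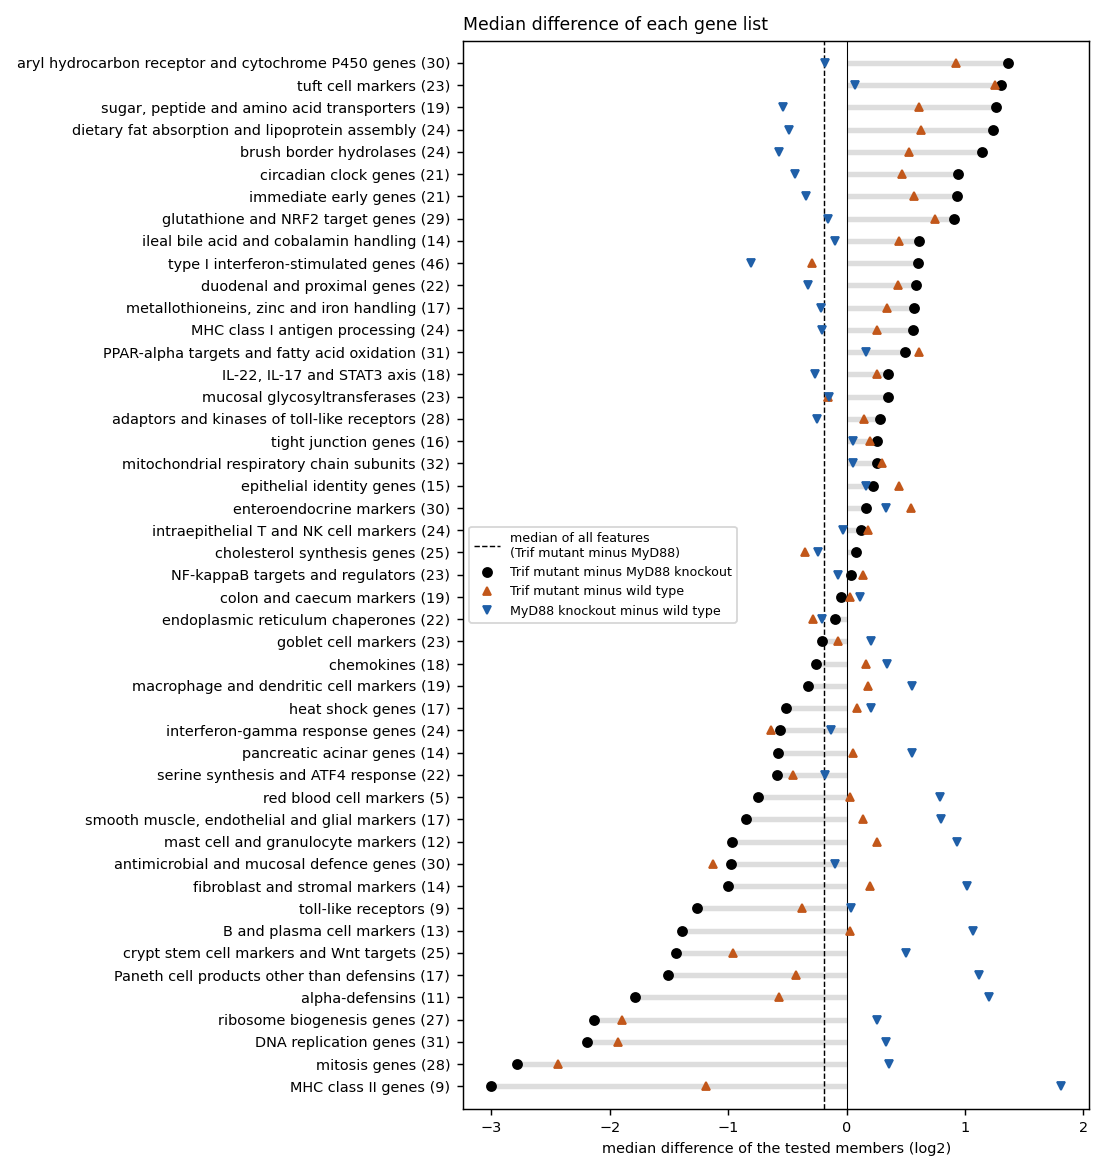
Median difference (log2, x axis) of the tested members of 47 gene lists (y axis, number tested in parentheses) for Trif mutant minus MyD88 knockout (circles), with each mutant minus the same wild type arrays as triangles and the median of all features (-0.19) as a dashed line. Lists at the bottom, MHC class II (-3.00) and mitosis (-2.78), were lower in Trif mutants, and those at the top, P450 genes (1.36) and tuft cell markers (1.30), higher.

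The 12 largest differences in each direction under the naming rule given below, which asks that the groups do not overlap, included several genes outside these lists. On the lower side stood Ceacam10, of the carcinoembryonic antigen family, at -5.64, -5.15, -6.07 and -6.22 in the Trif mutants and -0.70, -0.10, -0.67 and -0.06 in the MyD88 knockouts (-5.39 ± 0.46, FDR = 2.0e-07), and Clca3b, of the calcium-activated chloride channel regulators, at -3.37, -3.83, -3.89 and -2.97 in the Trif mutants and 1.05, 1.58, 1.18 and 1.14 in the MyD88 knockouts (-4.75 ± 0.26, FDR = 4.7e-09). Both had tight groups. After normexp Ceacam10 was -2.31, FDR = 3.8e-04. The matrix peroxidase Pxdn, at background level throughout the Trif mutants, was at least 10.6-fold lower (-4.83 ± 0.33, FDR = 4.0e-08), and the G protein-coupled receptor Mrgpra2b at least 5.55-fold (-4.17 ± 0.63, FDR = 2.7e-05). Neither passed after normexp (-0.74, FDR = 0.23, and -0.34, FDR = 0.61). Relative to wild type Mrgpra2b was 0.75 (FDR = 0.36) in Trif mutants and 4.93 (FDR = 3.1e-05) in MyD88 knockouts. For Ceacam10 these values were -0.87 (FDR = 0.14) and 4.52 (FDR = 5.5e-06), for Pxdn -1.33 (FDR = 0.0032) and 3.51 (FDR = 2.8e-06). Clca3b lay at -3.48 (FDR = 2.7e-07) and 1.27 (FDR = 8.8e-04). Mrgpra2b was well above background on the MyD88 arrays only, which were scanned apart from the others. It passed the signal filter only through these 4 arrays, the group where it was high. Its FDR values and its place among the largest differences are therefore no support for a difference.

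On the higher side the heme-sensing repressor Bach1 was 2.24, 2.25, 2.26 and 1.74 in the Trif mutants and -1.38, -1.51, -0.89 and -0.54 in the MyD88 knockouts (3.20 ± 0.23, FDR = 6.9e-08). Tm4sf4, a tetraspan membrane protein of the small intestine, was higher by 3.17 ± 0.50, the adaptor Nyap1 by 3.63 ± 0.29 and the zinc finger gene Zmat4 by 3.86 ± 0.29 (1.18 on its other probe). The NADPH oxidase Nox4 was higher by 3.48 ± 0.52, but by 0.43 on its other probe. Zfp652, a zinc finger repressor, was 0.02, 0.26, -0.67 and -4.26 in the Trif mutants and -5.00, -4.91, -4.27 and -4.38 in the MyD88 knockouts. Trif replicate 4 lay just above the MyD88 knockouts while the other 3 were far above them, and its second probe gave -0.61. Without Trif replicate 4 the difference was 4.51.

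**Figure D4:**
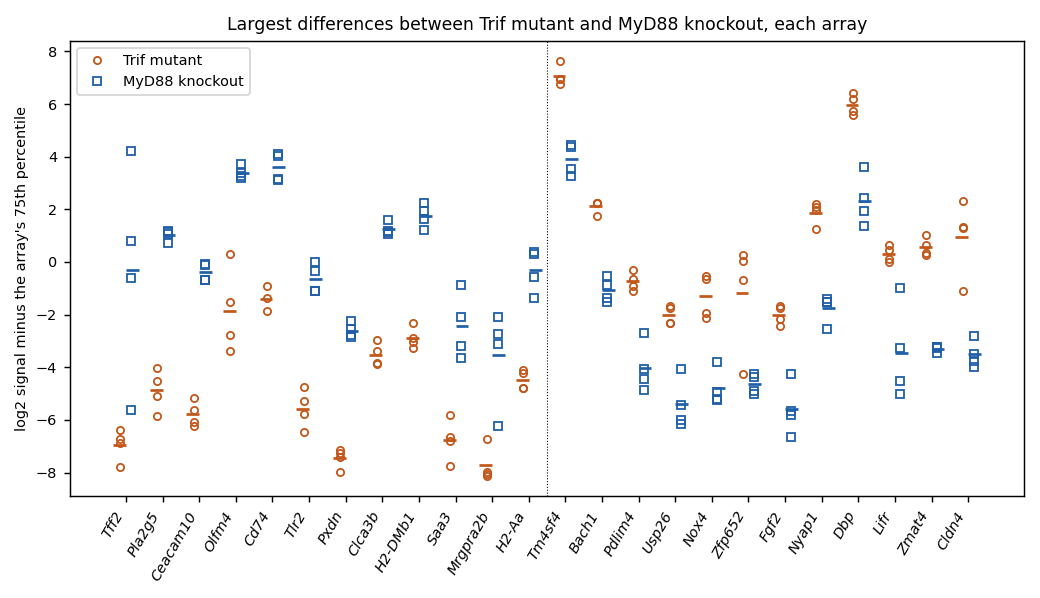
Log2 signal minus the array's 75th percentile (y axis) of the 24 genes with the largest differences under the naming rule (x axis, 12 lower in Trif mutants on the left, 12 higher on the right). Each array is a circle (Trif mutant) or square (MyD88 knockout), and bars are group means. Tff2 shows the widest MyD88 spread, and Bach1 is an example of 2 tight groups (3.20 ± 0.23).

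The other 4 of the 12 higher genes, Lifr, Fgf2, Usp26 and Pdlim4, share a feature of their probes and are printed for that reason. Each probe holds a run of alternating G and A, marked in capitals, of 10, 8, 7 and 9 bases, within the 30 bases shown of each probe. The probe of Dbp is added for contrast, with its longest such run of 4.
Lifr: tttcagaaagGAGAGAGAGAtacgcccaag
Fgf2: ctccaagcagaAGAGAGAGgagttgtgtct
Usp26: atgcttaagtgaAGAGAGAagagaacattt
Pdlim4: ctgtcctcaagGAGAGAGAGcaaacctggc
Dbp: tgccagggcAGAGtcctgttccttgctcag
Lifr, a cytokine receptor, was 0.64, 0.45, -0.01 and 0.12 in the Trif mutants and -5.02, -0.97, -4.51 and -3.25 in the MyD88 knockouts (3.74 ± 0.58, FDR = 3.1e-05). Fgf2, a growth factor, was -1.68, -1.74, -2.45 and -2.18 in the Trif mutants and -5.83, -4.26, -6.64 and -5.67 in the MyD88 knockouts (3.59 ± 0.38, FDR = 1.0e-06, after normexp 2.05, FDR = 3.2e-05). In both, MyD88 replicate 2 lay above the other 3 MyD88 arrays. The 2 other probes of Lifr, which lack the run, gave -1.26 and -0.81, and that of Pdlim4 -0.60 against 3.28.

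The letters GAGAGAGA, sought on the probe strand after these values were seen, were in the probes of 68 features (0.311%), Lifr and Pdlim4 among them and Fgf2 and Usp26 not. Of these 46 were higher and 10 lower, 67.6% higher against 27.1% of all features, with a median of 0.95 against -0.20 for the other features. Probes with CACACACA (53 features), TCTCTCTC (40) or TGTGTGTG (65) had medians of -0.67, -0.66 and -0.66. Relative to wild type the median of the GAGAGAGA features was 0.68 to 1.01 on the Trif arrays, 0.38 to 0.54 in Tlr3 and 0.16 to 0.33 in Tlr4 knockouts, which shared the slides, and -0.34 to 0.39 on the MyD88 arrays. Whether the probe's sequence had a part in these differences was not tested, and a difference read only by such a probe is not that of a gene read by several.

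**Figure D5:**
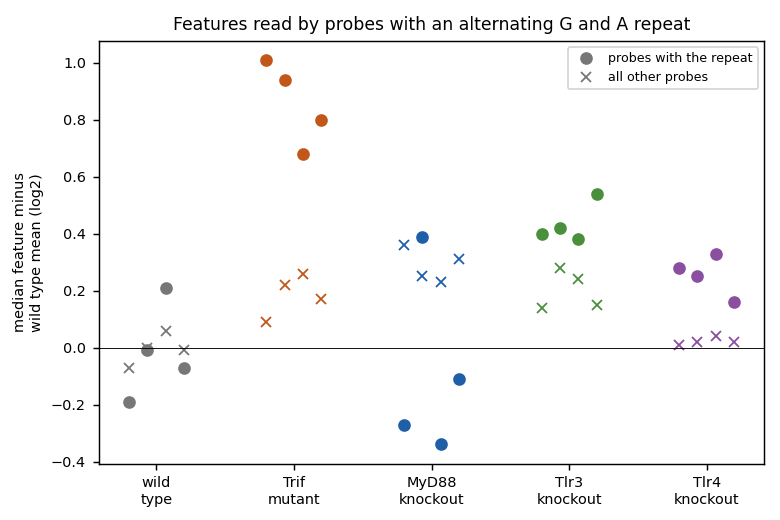
Median feature minus its wild type mean (log2, y axis) on each of the 20 arrays by genotype (x axis), for the 68 features whose probe holds GAGAGAGA (filled circles) and for all other features (crosses). On the Trif arrays the circles lie at 0.68 to 1.01 and the crosses at 0.09 to 0.26.

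Second probes bear on single genes more widely. Of 4680 called features with another measured probe of a different sequence, the second brightest probe had the same direction in 4028 (86.1%) and was called in the same direction in 3223, and it was called in the opposite direction in 251 (5.36%).

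Of the markers of cells other than epithelium, those of B and plasma cells had the lowest median difference. Of 13 tested B and plasma cell markers 10 were lower and 0 higher (median -1.39), and their summed signal was 0.457 to 0.592 times the array's 75th percentile in Trif mutants and 1.28 to 2.09 in MyD88 knockouts. Ms4a1, Pax5, Fcer2a and Blk were not well above background on any Trif array. Relative to wild type the median of this list was 0.03 in Trif mutants and 1.07 in MyD88 knockouts. Of its members 1 was lower than wild type in Trif mutants and 8 were higher in MyD88 knockouts. Of 14 fibroblast markers 8 were lower and 2 higher (1 without Trif replicate 3), of 17 smooth muscle, endothelial and glial markers 10 and 2 (0 higher without MyD88 replicate 2 or Trif replicate 3, 1 without Trif replicate 1 or 2 or MyD88 replicate 4), of 12 mast cell and granulocyte markers 6 (3 without MyD88 replicate 3) and 1 (0 without replicate 2, 3 or 4 of either group), of 14 pancreatic acinar genes 9 and 2 and of 5 red blood cell markers 4 and 0. After normexp 0, 1, 0, 0, 0 and 0 of these 6 lists' members were lower, with medians of 0.30, 0.38, 0.47, 0.53, 0.50 and 0.38 near that of all features (0.39). The fibroblast sum ran the other way, 34.9 to 48.5 in Trif mutants against 12.3 to 17.7, since Fbln1 (1.58 ± 0.20, FDR = 5.4e-06) made up most of it, while Dcn was lower (-2.85 ± 0.43, FDR = 2.3e-05, after normexp -0.48, FDR = 0.42). Lum and Postn were not well above background on any Trif array. The sums of the other lists were 22.6 to 45.2 against 24.0 to 27.9 for smooth muscle, endothelial and glial markers, 0.787 to 1.11 against 1.36 to 3.12 for mast cells and granulocytes, 4.57 to 5.33 against 3.80 to 5.05 for acinar genes and 0.408 to 0.539 against 0.574 to 0.905 for red blood cells. Of their markers Des, Pecam1, Gfap, Cpa3, Cxcr2, Amy2a5 and Epb42 were not well above background on any Trif array. Relative to wild type the medians in Trif mutants and MyD88 knockouts were 0.20 and 1.02 (fibroblast), 0.14 and 0.80 (smooth muscle, endothelial and glial), 0.26 and 0.93 (mast cell and granulocyte), 0.05 and 0.55 (acinar) and 0.03 and 0.79 (red blood cell). As the MyD88 arrays were scanned apart from wild type, their rise cannot be told apart from the scan.

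Immune markers that touch the lists above were these. T and NK cell markers were higher in 4 of 24 and lower in 4 (2 without Trif replicate 1 or MyD88 replicate 4, and 10 higher and 2 lower under median scaling), with summed signals of 24.9 to 61 and 24.8 to 43.7. Ptprc, which encodes CD45, was 0.32, 0.11, 0.26 and 0.51 in the Trif mutants and -1.08, -1.25, -0.23 and -0.99 in the MyD88 knockouts, higher by 1.19 ± 0.26 in Trif mutants (FDR = 0.00084), and Cd8b1 was lower (-2.98 ± 0.43, FDR = 1.6e-05, after normexp -1.66, FDR = 0.0073). Macrophage and dendritic cell markers were higher in 3 of 19, with C1qb (1.23 ± 0.16, FDR = 8.3e-06) and Mrc1 (1.81 ± 0.44), and lower in 6 (4 and 4 under median scaling, 3 and 1 after normexp), with sums of 21.2 to 41.8 in Trif mutants and 97.4 to 206 in MyD88 knockouts. The sum was carried by Lyz2 (-2.37 ± 0.35, FDR = 2.3e-05), a lysozyme whose sequence is close to that of Lyz1 of Paneth cells. Over all features 27.1% were higher and 37% lower, with a median of -0.19. The median was 0.12 for T and NK cell markers and -0.33 for macrophage and dendritic cell markers. B and plasma cell markers were lower than in MyD88 knockouts except after normexp, and their median in Trif mutants was 0.03 relative to wild type. The part of other cell types in the MHC class II and interferon results was not tested.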

How the data were processed

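Each array was an Agilent one-colour array (Cy3-labelled RNA, probes of 60 bases). The deposited intensity of each spot is, per the file headers, the signal that Agilent Feature Extraction 10.7.3.1 had subtracted for background and detrended. Other deposited columns, per the file headers flags of 0 or 1, mark spots well above background and outliers. The authors' deposited value table held these intensities times 1 factor per array (1.58 to 2.27), floored at 15. Positions are mm9, per the file headers.

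Here 1639 control spots and 67 to 210 flagged spots per array were left out, spots of a probe averaged, and the array's 75th percentile subtracted on the log2 scale. A probe was kept where at least 4 of the 20 arrays had it well above background (31537 of 41174, 76.6%). The brightest probe stood for each gene (21879 features, 104 with a value missing on at least 1 of the 8 arrays). Names were updated by accession through RefSeq (26795 probes matched, 3212 renamed). limma 3.58.1 (R 4.3.3) was fitted to all 20 arrays by genotype, with Benjamini-Hochberg adjustment and a two-sided threshold of 0.05. p-values measure the spread between 4 animals in each group, and the number of arrays limits the precision. In simulated data over 21608 features, 7, 32, 48 and 46 of 50 genes changed by 0.5, 1, 2 and 3 were recovered, with 8 false among 141 calls. Only these genes were changed, far fewer than the 64.1% of features called in the data, and no scan difference was simulated. The recovery is therefore that of a comparison with few changes and does not carry over to this one. A bound ("at least") sets the higher group's mean against the lowest signal well above background on each array. No paired fit was used, since same-numbered arrays did not vary together (r = -0.29 to 0.08). Alternatives were background correction with normexp (offset 50), quantile, median and cyclic loess scaling, the deposited table, other filters, blocks and weights, and leaving out each array. Cyclic loess was chosen after the data were seen.

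Genes were named by a rule: the 12 largest differences in each direction among called features with no overlap, the adaptor and receptor genes under study, and the 2 called members of each list that differed most in each direction (175 genes, of which 173 passed, the largest of a list's members where none did). Not every gene that the rule named is described in the text, and some are not reported here. The members and lists were chosen with earlier results of these data known. Tlr5, Tlr6, Tlr9, Ly96, Cd14, Lbp, Irak1, Irak2, Irak4, Tbk1, Ripk1, Ripk3, Bub1, Ccnb1, Lgr5, Lyz1, Reg3g, Slpi, Saa2, Dmbt1, Ciita, H2-Oa, H2-Eb2, Apoa4, Fabp1, Fabp2, Fabp6, Trpm5, Ptgs1, Dclk1, Pou2f3, Stat2, Irf7, Ifit1, Nr1d1, Ciart, Per1, Cyp1a1 and Fut2 fell outside the rule and were chosen after their values were seen, as were the promoters and probe letters shown. Promoter sequences are RefSeq's (GRCm38.p6), and no coordinate was moved between builds.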

Additional observations from a re-analysis of the deposited data

Results flagged for a closer look

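In 27 of 350 groups of 4 arrays (7.71%) the highest or lowest array stood far from the other 3, where chance gives about 1 in 20. All values are log2 signals relative to the array's 75th percentile.

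Trif replicate 4 was named most often. Its Xist value was 2.32 (the others -8.02 to -7.36), and it was the only array of the 8 with Xist above Y-linked signal. It was low for Ticam1 (1.67, others 2.15 to 2.23), Bach1 (1.74, others 2.24 to 2.26), Ido1 (1.66, others 2.77 to 2.85), Stat3 (2.77, others 3.97 to 4.05) and S100a9 (-8.08, others -6.60 to -6.46). It was high for Tlr1 (-3.38, others -5.47 to -5.12) and Fbln1 (5.56, others 5.08 to 5.12).

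Among the other Trif mutants, replicate 1 was high for Mrgpra2b (-6.72, others -8.12 to -7.99) and Lum (-7.50, others -7.97 to -7.90) and low for the histidine decarboxylase Hdc (-3.83, others -3.60 to -3.57). Replicate 2 was low for Dcn (-6.98, others -5.11 to -4.83). Replicate 3 was high for the sterol enzyme Nsdhl (0.27, others -0.22 to -0.17), the mannose receptor Mrc1 (-0.61, others -2.26 to -2.06) and Pdgfrb (-1.09, others -1.89 to -1.80).

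Among the MyD88 knockouts, replicate 1 was high for Myd88 (1.08, others 0.84 to 0.86), Hamp (-5.40, others -5.97 to -5.95), Hdc (-4.13, others -4.59 to -4.56), Pdgfrb (-1.77, others -2.60 to -2.56) and Amy2a5 (-4.74, others -6.71 to -6.46). Replicate 2 was low for Nyap1 (-2.54, others -1.53 to -1.40), Tollip (1.86, others 2.53 to 2.64) and the immunoglobulin J chain gene Jchain (-3.07, others -2.46 to -2.41) and high for Mcm5 (3.34, others 2.57 to 2.66). Replicate 3 was high for the carotenoid-cleaving enzyme Bco1 (-2.51, others -3.42 to -3.28) and Rnase1 (1.68, others 0.81 to 0.91), and replicate 4 was low for Creb3l4 (1.48, others 2.05 to 2.16).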

How the results depend on the processing

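The count of 14027 features was 7053 after normexp and 6607 with a difference of at least 1 as well. Under the other alternatives run it was 9955 to 16029, and 20240 with every probe kept. Without 1 array it ran from 12896 (without MyD88 replicate 1) to 14082 (without Trif replicate 4). Same-numbered arrays of the groups did not vary together, so the numbers were not taken as a pairing, and the fit with the replicate block called 9955 features, with 16 of 173 called named genes lost.

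Of the named genes called, 46 were lost or turned under at least 1 of the 4 scalings and 14 without 1 array or another. Normexp turned 13, all without a call: Irak3 to 0.31, Lrp2 to 0.44, Cyp1a2 to 0.71, Ero1lb to 0.34, Hamp to 0.71, Ms4a1 to 0.07, S100a9 to 0.59, Lum to 0.63, Des to 0.62, Emcn to 0.53, Epb42 to 0.69, Klf1 to 0.53 and Amy2a5 to 0.68. Median scaling turned Ndufa9 to 0.04, and without 1 array Xist, which did not pass, ran from -0.13 (without Trif replicate 4) to 3.31 (without Trif replicate 3). Most of these are dim genes, where signal over background limits what can be read. The cause was not tested.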
